A study of Mus musculus with 18 samples.

Results

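Replication-dependent histone genes encode the bulk of the histone proteins that package newly copied DNA. They were taken here as all protein-coding genes whose symbol in the GENCODE M21 annotation starts with Hist1h, Hist2h, Hist3h or Hist4h, which gave 67 of the 53458 genes measured. By type they are 6 linker histone H1 genes, 18 H2A, 18 H2B, 12 H3 and 13 H4 genes, and 3 pseudogenes with like names were left out. The Hist1 cluster on chromosome 13 holds 54 of them, the Hist2 cluster on chromosome 3 holds 10, Hist3 on chromosome 11 holds 2 and Hist4 on chromosome 6 holds 1 (GRCm38). RNA of sorted bone marrow cells from C57BL/6 mice was sequenced in 6 groups of 3 libraries. Each of 3 populations came from Ptbp1 fl/fl mice (WT below) and from mice labelled Ptbp1 knockout (KO): hematopoietic stem cells (HSC, lineage-negative cells gated for CD150+, CD48-, c-kit+ and Sca-1+), preMegE progenitors of megakaryocytes and red cells, and preCFU-E progenitors committed to red cells. Ptbp1 encodes a pyrimidine tract binding protein that regulates splicing. The labels name neither the Cre driver nor the age of the mice, and call the libraries of a group biological replicates. Every p-value below rests on the spread between such libraries, which the main fit pools over all 6 groups. That spread was unequal. As a relative SD beyond counting noise, edgeR put it at 0.474 from HSC libraries alone. It was 0.238 from preMegE alone, 0.127 from preCFU-E alone and 0.354 from all groups.

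H2A, H2B, H3 and H4 form the core of the nucleosome, around which DNA is wound, and H1 binds the DNA between nucleosomes. The replication-dependent genes are intronless in the main, are transcribed mostly in S phase, and give mRNAs that end in a conserved stem-loop in place of a poly(A) tail. SLBP binds the stem-loop. A dedicated machinery cuts the transcript after the loop and degrades the mRNA, which ties the mRNA to DNA synthesis. Variant histones such as H2A.Z and H3.3 come from separate, polyadenylated genes that are expressed throughout the cell cycle.

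The stem-loop was searched in the annotated transcripts as a perfectly paired stem of 6 bases around a loop of 4, with letters fixed in part: the stem had to begin with GG and end in T, and the loop had to begin with TT, with the other letters free. It is shown because it sets how these mRNAs end and hence what a library preparation can capture. A loop of this form was found in 44 of the 67 histone genes, against 69 of 21781 protein-coding genes (0.317%), and 6 sets of letters occurred in the members. Forms that depart from the fixed letters were not searched. The 6 forms follow, each from a transcript that holds it, 5′ to 3′, with the stem and loop in capitals and up to 5 flanking bases on each side.
Hist1h1e (H1): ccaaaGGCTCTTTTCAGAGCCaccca
Hist1h2bb (H2B): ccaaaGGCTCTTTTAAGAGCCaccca
Hist2h2ac (H2A): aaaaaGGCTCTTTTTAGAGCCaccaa
Hist1h4c (H4): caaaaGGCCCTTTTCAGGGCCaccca
Hist1h4j (H4): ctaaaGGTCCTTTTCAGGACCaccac
Hist2h4 (H4): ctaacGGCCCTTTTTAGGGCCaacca
The first form was held by 26 members of the H1, H2A, H2B and H3 types, and the 3 forms with another stem (the last 3 shown) occurred in H4 genes alone. Taken from the longest protein-coding transcript of each gene, the annotated model ended within 100 bases of the loop in 21 members and ran more than 100 bases past it in 22. In the other 24 no loop of this form lay in that model. Hist1h2bp is among these 24, although its shorter transcript holds the loop.

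Promoter windows from 250 bases before to 50 after the transcription start were matched for 62 of the 67 members in RefSeq (GRCm38.p6). The CCAAT box, searched as CCAAT on both strands, was in 53 of these 62 windows and in 37.92% of all 27025 promoters. It was in every matched H1, H2A, H2B and H3 window but in 3 of 12 H4 windows. The TATA box, searched as TATAAA, was in 35 of 62 against 14.16%. The octamer ATTTGCAT was in 13 of 62 against 1.75%, namely in 7 H2A and 6 H2B windows, and AAACACA was in 9 of 62 against 7.14%, 5 of them among the 6 H1 genes. All motifs were read on both strands, TATAAA and AAACACA can overlap at their shared AAA, and neighbouring H2A and H2B genes that diverge from 1 spacer can share a site. The windows of 3 members that recur below are shown on their own strand with every match in capitals, a CCAAT on the opposite strand reading as ATTGG.
Hist1h1b (H1, chr13:21780576-21780875, minus strand): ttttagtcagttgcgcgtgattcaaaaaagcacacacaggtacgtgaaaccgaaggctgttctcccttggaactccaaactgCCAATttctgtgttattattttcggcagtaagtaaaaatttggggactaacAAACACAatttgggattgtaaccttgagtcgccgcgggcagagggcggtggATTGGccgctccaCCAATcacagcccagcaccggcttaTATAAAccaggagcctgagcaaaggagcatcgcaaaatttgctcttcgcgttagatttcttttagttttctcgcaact
Hist1h2bb (H2B, chr13:23746484-23746783, plus strand): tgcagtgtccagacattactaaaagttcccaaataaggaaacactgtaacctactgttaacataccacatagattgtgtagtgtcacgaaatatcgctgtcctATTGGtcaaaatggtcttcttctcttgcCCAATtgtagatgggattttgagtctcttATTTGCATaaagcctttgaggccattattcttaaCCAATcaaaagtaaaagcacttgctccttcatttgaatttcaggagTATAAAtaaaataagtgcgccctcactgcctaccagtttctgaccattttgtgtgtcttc
Hist1h4c (H4, chr13:23698409-23698708, minus strand): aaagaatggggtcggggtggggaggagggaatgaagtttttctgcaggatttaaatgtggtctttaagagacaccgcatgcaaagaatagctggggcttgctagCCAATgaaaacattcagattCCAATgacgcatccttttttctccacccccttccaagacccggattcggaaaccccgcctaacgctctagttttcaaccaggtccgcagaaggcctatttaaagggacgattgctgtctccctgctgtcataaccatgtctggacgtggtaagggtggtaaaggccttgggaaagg
The H1 window holds AAACACA together with the CCAAT and TATA boxes, the H2B window holds the octamer with both boxes, and the H4 window holds CCAAT matches alone. No match in the other windows says only that these letters are not in that stretch.

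Libraries held 15956408 to 29226287 estimated reads, of which 9760 to 44025, or 0.052% to 0.151%, were assigned to the histone genes. Levels are in CPM, the usual depth-scaled read count, here with TMM factors, and a mean is followed by ± the SD of its 3 libraries. Ptbp1 itself was lower in the KO of every population. It was at 208 ± 12.5 CPM in WT HSC against 98.1 ± 8.84 in KO HSC, at 693 ± 95.8 against 203 ± 25.4 for preMegE, and at 1244 ± 117 against 306 ± 10.5 for preCFU-E. The stem cell genes Hlf (614 CPM in WT HSC, 27.7 in WT preMegE) and Mecom (183 and 9.92) and the erythroid genes Klf1 (0.858, 64.5 and 183 in WT HSC, preMegE and preCFU-E) and Car1 (7.42, 998 and 5040) had the order the population names imply. Xist, which is expressed from the inactive X, was at 7400 CPM in WT HSC and at 0.660 and 0.587 CPM in WT preMegE and preCFU-E, while Y-linked Eif2s3y was at 0.566 CPM in WT HSC and at 44.7 and 72.1 CPM in WT preMegE and preCFU-E. Sex and population therefore cannot be told apart between HSC and the progenitors. In such bulk samples fewer cycling cells and less histone mRNA per cell cannot be told apart either.

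Histone mRNA was dominated by few genes. Over the 18 libraries Hist1h4d, which encodes H4, took 17.5% of the summed histone CPM and Hist1h1e, which encodes an H1, took 14.9%, and the 5 highest members, with Hist1h1b, Hist1h2bl and Hist1h2bm, took 50.5%. Per kilobase of effective length the order was different: Hist1h2bl led with 637 CPM per kilobase, followed by Hist1h2ak (382), Hist1h2bq (367), Hist1h4d (214) and Hist1h2bm (212). This order depends on how far each annotated model runs. The mean effective length was 105.2 bases for Hist1h2bl and 114.6 for Hist1h2ak, against 830.9 for Hist1h4d. Hist1h2bq shares 98.3% of its 31-base words with Hist1h2br, so the reads of this pair were divided between near-identical models. Among H3 genes the highest per kilobase were Hist2h3b (47.0), Hist2h3c2 (42.1) and Hist1h3i (27.0). Genes known mainly from the testis were at or near 0: Hist1h2aa and Hist1h2ba had no read in any library, and Hist1h1t did not exceed 0.142 CPM.

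The summed level of all 67 genes was 762, 753 and 627 CPM in the WT HSC libraries and 456, 428 and 490 CPM in the KO HSC libraries, that is 714 ± 75.5 against 458 ± 31. Every KO HSC library lay below every WT HSC library, and the ratio of the means was 0.641. In preMegE the sum was 964, 869 and 914 CPM in WT and 1180, 664 and 777 CPM in KO, so the KO libraries spread on both sides of the WT libraries. In preCFU-E it was 1720, 1430 and 1580 CPM in WT and 1460, 1650 and 1720 CPM in KO, and the groups overlapped. The sum over WT populations had the order HSC, preMegE, preCFU-E in CPM, with means of 714, 916 and 1580. The step from HSC to preMegE depended on the scale: the log2 ratio of the means was 0.36 in CPM, 0.11 with library sizes from protein-coding genes and -0.17 in TPM. The step to preCFU-E was positive on each of these scales, at 0.79, 0.60 and 0.59.

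**Figure D1:**
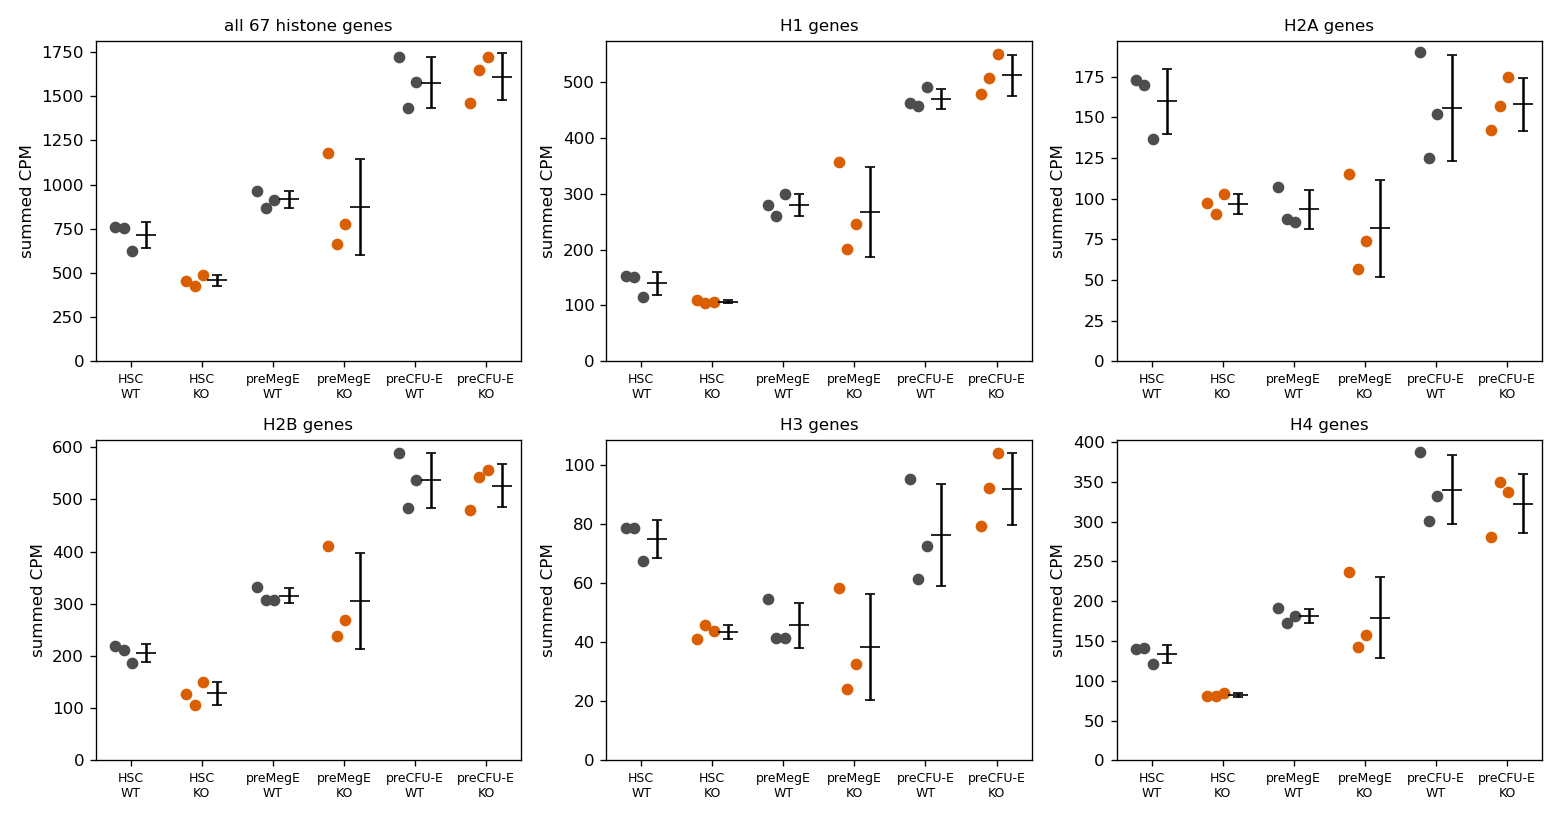
Summed CPM (vertical axis, starting at 0) of all histone genes and of each histone type; points are libraries, grey for WT and orange for KO, and bars give the mean and SD of 3 libraries. The KO HSC libraries lie below the WT HSC libraries in all 6 panels, 1 preMegE KO library stands above the rest of its group, and the H2A and H3 points of WT HSC and WT preCFU-E overlap.

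The mix of histone types differed between HSC and both progenitors. H2A genes took 22.4% ± 0.507 of the histone CPM in WT HSC and 10.2% ± 0.886 in WT preMegE, and H3 genes took 10.5% ± 0.226 and 4.98% ± 0.591. H1 genes moved the other way, from 19.5% ± 0.814 to 30.5% ± 1.94, and H2B genes from 28.9% ± 0.722 to 34.5% ± 0.901. For each of these 4 types the 6 HSC libraries and the 6 preMegE libraries did not overlap. The H2A sum went from 160 CPM in WT HSC to 93.5 CPM in WT preMegE. Within it Hist1h2ak went from 77.8 to 24.0 CPM, with 25.6% of its 31-base words unique, while Hist2h2aa1 rose from 3.62 to 19.8 CPM. The H4 share was 18.8% ± 0.471 and 19.9% ± 0.0742. In WT preCFU-E the shares were close to those of preMegE: 29.9% for H1, 9.79% for H2A, 34.0% for H2B, 4.80% for H3 and 21.5% for H4. In KO HSC the H1 share was 23.3% ± 1.33, above all WT HSC libraries and below all preMegE libraries, and the H2A share was 21.2% ± 0.126.

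**Figure D2:**
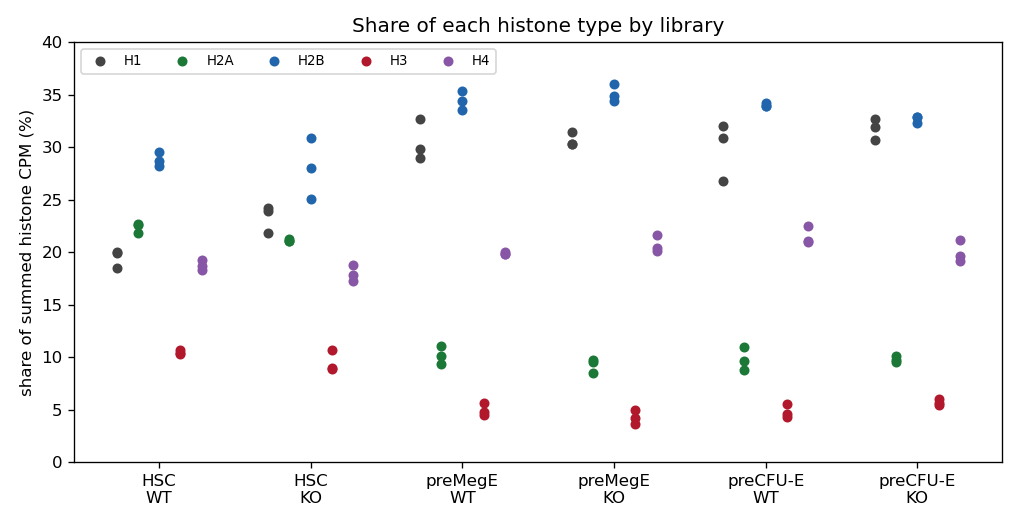
Share of each histone type in the summed histone CPM of a library (vertical axis, percent) for the 6 groups; each point is a library. H2A lies between 21.1% and 22.7% in the HSC libraries and between 8.52% and 11.1% in the preMegE libraries, and H1 lies higher in both progenitors than in HSC.

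In HSC, histone genes were lower in the KO as a group of small to moderate differences. Of 61 members that passed the filter on low counts, 4 were called at an adjusted p below 0.05 (edgeR's quasi-likelihood test, Benjamini-Hochberg over 21565 genes), all 4 lower, against 0.844% of all genes called and 0.459% called lower. The log2 change was negative in 56 of the 61, against 48.7% of all genes, with a median of -0.77 against 0.01. An unadjusted p below 0.05 was reached by 28 of 61, against 13.7% of all genes. In 28 members every KO library lay below every WT library, against 6.29% of all genes, and no member had the reverse. The 6 members not tested were Hist1h1t, Hist1h2aa, Hist1h2ba, Hist3h2ba, Hist1h4b and Hist1h4m, all at under 1 CPM in every library.

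**Figure D3:**
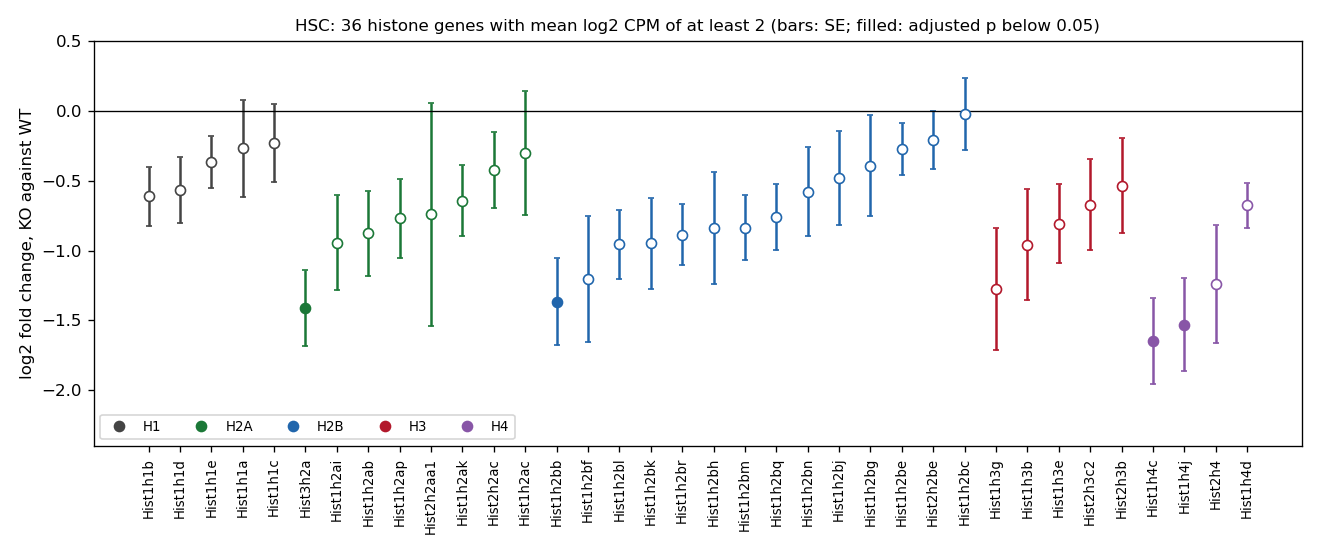
Log2 fold change of KO against WT HSC (vertical axis) for the 36 members whose mean log2 CPM was 2 or more, grouped and coloured by type; bars are standard errors and filled points have an adjusted p below 0.05. All 36 values are below 0, from -1.65 for Hist1h4c to -0.02 for Hist1h2bc.

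The linker histones showed the smallest change. Hist1h1e was at 76.5, 80.0 and 56.0 CPM in WT HSC and at 62.8, 44.9 and 57.3 CPM in KO HSC, a log2 change of -0.37 ± 0.19 (SE) that did not pass the test (edgeR adjusted p = 0.40). Hist1h1b, known as H1.5, was at 27.1, 23.8 and 19.8 CPM against 17.1, 9.07 and 20.2 CPM. Both genes had KO libraries within the WT range. The median over the 5 H1 genes tested was -0.37 and none was called.

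Among H2A genes the called member was Hist3h2a, which lies in the small Hist3 cluster (chr11:58954685-58956830). It was at 10.6, 12.2 and 11.8 CPM in WT HSC and at 5.58, 4.21 and 3.18 CPM in KO HSC, a log2 change of -1.41 ± 0.27 (SE) with an adjusted p of 0.019 by edgeR. The groups stood apart by a wide margin. With the HSC groups alone the edgeR adjusted p was 0.628 (1.01e-05 to 0.628 over all alternatives). Of its 31-base words, 32.1% also occur in other genes, mainly in Trim17, whose level went the other way (1.15 ± 0.311 CPM in WT HSC, 3.21 ± 0.812 in KO HSC), so the division of reads between the pair moves with this result and its part was not tested. Hist1h2ak, the most abundant H2A gene, was at 86.8, 86.1 and 60.4 CPM in WT and at 46.0, 52.3 and 51.2 CPM in KO, without overlap but with an adjusted p of 0.26 by edgeR. Hist1h2ab was at 13.9, 9.86 and 11.6 CPM against 5.83, 4.37 and 9.06 CPM. The median over 17 H2A genes was -0.74.

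All 16 H2B genes tested had a negative log2 change, with a median of -0.80. Hist1h2bb (chr13:23746734-23747241) was called: it was at 8.34, 8.51 and 16.4 CPM in WT HSC and at 5.93, 2.24 and 4.65 CPM in KO HSC, a log2 change of -1.37 ± 0.31 (SE) with an adjusted p of 0.038 by edgeR. Its groups did not overlap, and 1 WT library was well above the other two. Without that library the log2 change was -0.94 and the edgeR adjusted p 0.165, and without KO library 2 they were -1.06 and 0.0733. With length-scaled counts the adjusted p was 0.0757 (0.00199 to 0.758 over all alternatives). The most abundant H2B genes, Hist1h2bl and Hist1h2bm, were at 40.5, 40.3 and 23.8 CPM against 20.2, 11.2 and 22.5 CPM and at 25.4, 25.5 and 21.7 CPM against 11.4, 10.1 and 19.2 CPM. Both were separated between the groups, with adjusted p values of 0.068 and 0.093 by edgeR.

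H3 genes had a median log2 change of -0.88 over 12 genes, with 8 of them separated between the groups and none called. The most abundant in WT HSC were Hist2h3c2 (25.6 ± 6.87 against 16.1 ± 4.16 CPM), Hist1h3b and Hist1h3e (10.2 ± 0.426 against 5.82 ± 1.90 CPM). The largest change among H3 genes of this abundance (mean log2 CPM of 2 or more) was that of Hist1h3g, at 3.96, 2.85 and 4.33 CPM in WT HSC and 0.527, 1.84 and 2.24 CPM in KO HSC.

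H4 genes held the other 2 calls and the lowest median, -1.28 over 11 genes. Hist1h4c (chr13:23697635-23698454) was at 6.45, 9.69 and 7.96 CPM in WT HSC and at 2.36, 2.08 and 3.29 CPM in KO HSC, a log2 change of -1.65 ± 0.31 (SE) with an adjusted p of 0.014 by edgeR. Hist1h4j (chr13:21735064-21735837) was at 9.63, 6.51 and 4.73 CPM in WT and at 2.87, 2.62 and 1.72 CPM in KO, with a log2 change of -1.53 ± 0.34 (SE) and an adjusted p of 0.035. For both genes the lowest WT library lay above the highest KO library. Without WT library 2 Hist1h4c was no longer called (adjusted p = 0.0514 by edgeR, 3.44e-05 to 0.628 over all alternatives), and Hist1h4j was not called without WT library 1 (0.114), WT library 2 (0.0617) or KO library 3 (0.0519), with a range of 0.000727 to 0.752. Hist1h4d, the most abundant histone gene, was at 109, 110 and 87.2 CPM in WT HSC and 67.9, 53.8 and 69.7 CPM in KO HSC. It changed by -0.68 ± 0.16 (SE) on the log2 scale, with an adjusted p of 0.050 that lay just above the threshold (edgeR). Hist2h4, the H4 gene of the Hist2 cluster, was at 5.14, 5.49 and 4.84 CPM against 1.70, 0.745 and 4.11 CPM.

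The number of calls in HSC was not stable, although no alternative made any call in the other direction. It was 0 with the HSC libraries alone (edgeR, 15 of 53 members at an unadjusted p below 0.05), 8 with no filter on low counts, 4 with limma-voom and 10 with DESeq2. The fit to HSC alone had a wider spread than the pooled fit (0.474 against 0.354). It also had 4 residual degrees of freedom in place of 12. The 4 calls of the main fit are therefore not judged against the spread of HSC alone. Leaving out WT HSC library 2 gave 2 calls and leaving out KO HSC library 3 gave 12. The share of all genes called by each fit is not set beside these counts. They therefore do not tell a change among histone genes from a change among all genes. The median log2 change stayed between -0.89 and -0.68 over all these fits. All 4 called genes have at least 50% of their 31-base words to themselves; among the 22 such members tested, 21 had a negative change with a median of -0.59, and among the 39 with more shared sequence 35 did, with a median of -0.84. By model end, the median was -0.95 for 19 members whose model ends at the loop, -0.63 for 20 whose model runs past it and -0.70 for 22 with no loop in the model.

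Lists of related genes are given for the same comparison, without a test between lists; over all genes in HSC 48.7% were negative and 13.7% were at an unadjusted p below 0.05. None of the 4 lists had a call in any KO contrast (edgeR). In HSC the 16 genes of histone mRNA processing, such as Cpsf2, Eri1 and Xrn2, had a median log2 change of 0.02 with none at an unadjusted p below 0.05. The 50 S phase genes, which include the replication helicase gene Mcm6, the clamp gene Pcna and the ribonucleotide reductase gene Rrm1, had a median of -0.04, with 28 negative and 6 at an unadjusted p below 0.05. The 15 histone chaperones, such as Nap1l1, Supt16 and Rbbp7, had a median of -0.15. The 11 replication-independent histone genes had a median of -0.24, with 9 negative and 4 at an unadjusted p below 0.05 (36.4%); H2afz, which encodes H2A.Z, was at 559 CPM in WT and 425 CPM in KO, and H3f3a and H3f3b, which encode H3.3, were at 144 against 124 and 145 against 137. In HSC DESeq2 called 1 gene of this list and 1 S phase gene, and edgeR on length-scaled counts called 3 S phase genes.

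**Figure D4:**
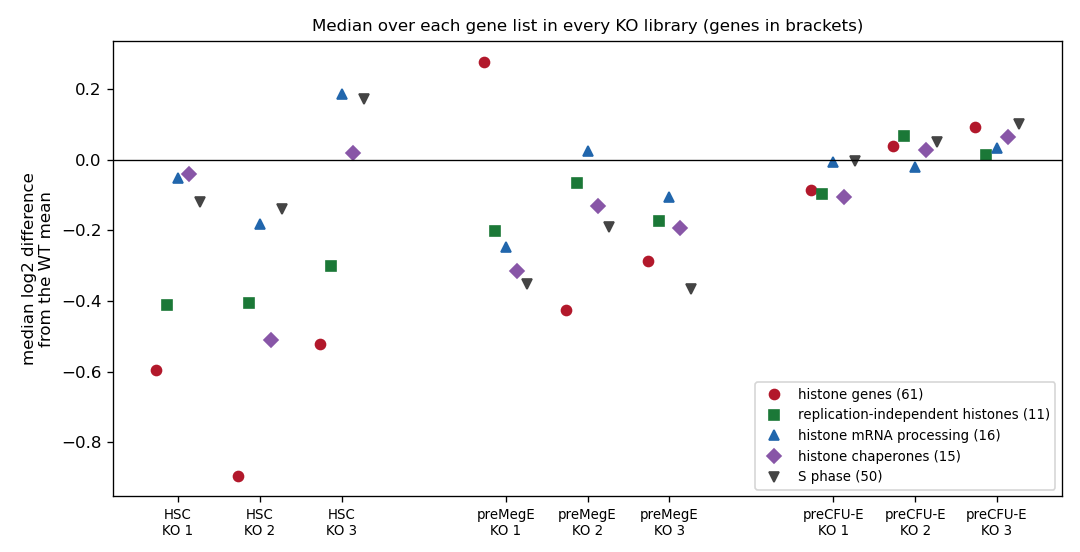
Median log2 difference from the WT mean of the same population (vertical axis, on log2 of CPM + 0.5) over 5 gene lists in each KO library. In HSC the histone median is -0.60, -0.89 and -0.52 in the 3 KO libraries, that of replication-independent histones -0.41, -0.41 and -0.30, and that of S phase genes -0.12, -0.14 and 0.17; in preMegE and preCFU-E the histone medians lie on both sides of 0.

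Marker lists of mature white blood cells and of stroma overlapped between WT and KO HSC in their summed levels, while lists of stem cells and of the megakaryocyte and erythroid lineage in part did not. The 8 granulocyte and monocyte markers summed to 102 to 129 CPM in WT and 98.3 to 113 CPM in KO, mostly from Lyz2, and the 5 B cell markers to 8.22 ± 1.61 and 6.84 ± 3.28 CPM, with Pax5 at 0 in all HSC libraries. The 4 T and NK cell markers summed to 14.9 to 30.5 and 12.2 to 18.7 CPM with Trbc2 at 0, the 4 macrophage markers to 4.31 to 11.3 and 3.62 to 5.85 CPM, and the 5 endothelial and stromal markers to 29.5 to 52.2 and 36.1 to 41.3 CPM. The 9 erythroid markers summed to 466 to 506 CPM in WT and 308 to 414 CPM in KO, and the 8 stem cell markers to 1980 to 2040 and 1590 to 1940 CPM, among them Procr with 38.0 against 17.7 and Mllt3 with 214 against 149 CPM on average. The 5 markers of megakaryocyte and erythroid progenitors were on the other side, at 321 to 370 CPM in WT and 387 to 536 CPM in KO, as was Cd48, which the sort excludes, at 0 to 0.533 and 0.833 to 2.69 CPM. The 5 megakaryocyte markers overlapped, at 138 to 178 and 147 to 234 CPM. The part of these differences in the histone result was not tested.

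In the progenitors no histone gene was called in the KO. The main fit judged them against the pooled spread (0.354), wider than that of preMegE (0.238) or preCFU-E (0.127) alone. In preMegE 0 of 61 passed (0.0603% of all genes), 2 were at an unadjusted p below 0.05 (4.9% of all genes), the median was -0.15 and 43 were negative. The first KO library stood above WT and the other 2 below it, with histone medians of 0.28, -0.43 and -0.29. Of the 2 genes at an unadjusted p below 0.05, Hist2h2be was at 27.5, 20.7 and 21.5 CPM in WT and at 33.7, 28.3 and 33.0 CPM in KO, without overlap, and Hist4h4 was high in a single KO library. limma-voom called 0, and DESeq2 called Hist2h2aa2 and Hist2h3c1, whose sequence is entirely shared with other genes. S phase genes had a median of -0.32 in preMegE KO with 48 of 50 negative and 8 at an unadjusted p below 0.05, against 48.2% negative and 4.9% at that level over all genes. The median of this list by library, against the WT mean, was -0.227, 0.006 and 0.237 in WT preMegE. It was -0.351, -0.191 and -0.366 in KO preMegE, so the groups overlapped. In preCFU-E 0 of 61 passed (0.153% of all genes), 1 was at an unadjusted p below 0.05 (3.7% of all genes), Hist1h2bc, and DESeq2 and limma-voom called 0. Hist1h2bc was between 9.95 and 10.8 CPM in the WT libraries and at 6.39, 6.07 and 7.46 CPM in KO. The median was 0.01 and 30 of 61 were negative.

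The difference of the KO effect between populations was tested directly. Between preMegE and HSC no member was called (0.0325% of all genes) and 13 were at an unadjusted p below 0.05 (21.3%, against 8.1% of all genes), the lowest being Hist1h4c with a log2 difference of 1.51 ± 0.43 (SE) and an edgeR adjusted p of 0.28. DESeq2 called Hist1h4c, Hist3h2a and Hist2h2aa2 there. Between preCFU-E and HSC none was called by either tool (0.051% of all genes) and 22 were at an unadjusted p below 0.05 (36.1%, against 7.9% of all genes). In both, 54 of 61 members had a positive difference, that is a KO log2 change further to the negative side in HSC. The medians were 0.62 and 0.81 against 0.02 and -0.04 for all genes. Between preCFU-E and preMegE none was called (0.0% of all genes) and none was at an unadjusted p below 0.05 in edgeR (2.6% of all genes), against 3 at that level in DESeq2. These differences share the HSC libraries with the HSC comparison above. No single member's KO effect passed the edgeR test for a difference between HSC and a progenitor.

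From WT HSC to WT preMegE, histone types moved in different directions; this step starts from the WT HSC libraries of the KO comparison above. Of 61 members 22 were called, 13 higher and 9 lower, against 53.7% of all genes, of which 25.5% were higher and 28.2% lower; a share of 36.1% called is below that background. Of the 5 H1 genes 4 rose: Hist1h1a, Hist1h1b, Hist1h1d and Hist1h1e by log2 1.45, 1.24, 1.11 and 1.05. Hist1h1b went from 27.1, 23.8 and 19.8 CPM to 55.1, 53.1 and 59.4 CPM, a change of 1.24 ± 0.21 (SE) with an edgeR adjusted p of 5.91e-05. Of the 16 H2B genes 6 rose (Hist1h2bg, Hist1h2bc, Hist1h2bm, Hist1h2bn, Hist1h2be and Hist1h2bl, by 1.67 to 0.70) and none fell. Of the 17 H2A genes 6 fell (Hist1h2af, Hist1h2ak, Hist1h2ai, Hist1h2ap, Hist2h2ac and Hist3h2a, by -2.08 to -0.65) and Hist2h2aa1 rose. Hist1h2ak went from 86.8, 86.1 and 60.4 CPM to 29.1, 20.8 and 22.2 CPM, with a change of -1.69 ± 0.26 (SE) and an edgeR adjusted p of 2.08e-05. Of the 12 H3 genes Hist1h3b, Hist2h3c2 and Hist1h3e fell, by -1.88, -1.22 and -0.72. Of the 11 H4 genes Hist1h4k and Hist1h4d were called higher, by 1.71 and 0.65. The change was negative in 8 of the 11, with a median of -0.53. Hist1h4k was at a low level, 0.335 ± 0.154 CPM in WT HSC and 1.05 ± 0.338 CPM in WT preMegE, with 13.8% of its 31-base words unique.

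The balance of this step moved with the scaling. The higher and lower calls were 13 and 9 with TMM or RLE factors, 16 and 6 with length-scaled counts and 10 and 11 with protein-coding genes alone, which also moved the median of all genes from -0.43 to -0.08. The H1 and H2B medians were positive (1.11 and 0.71, with TMM) under each of the 4 scalings. The H2A and H4 medians were negative (-0.65 and -0.53, with TMM) under each, while the H3 median was -0.26 and became 0.03 with length-scaled counts. Members with mostly shared sequence gave 6 rises and 8 falls and those with at least 50% unique words gave 7 rises and 1 fall, Hist3h2a, so the H2A falls other than Hist3h2a rest on genes with mostly shared sequence.

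**Figure D5:**
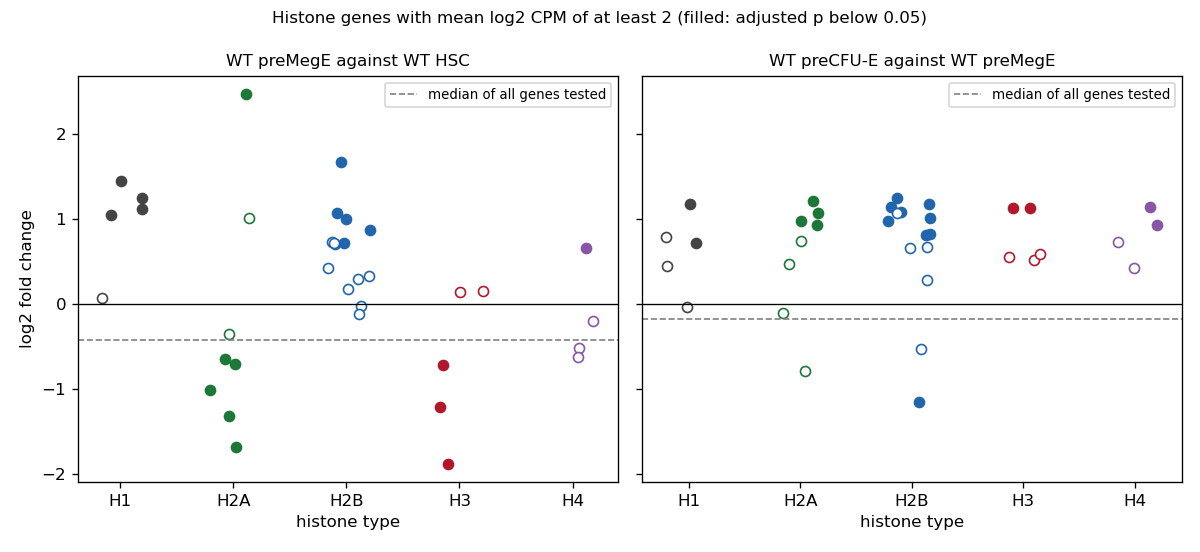
Log2 fold change (vertical axis) of the 36 members whose mean log2 CPM was 2 or more, by histone type, for WT preMegE against WT HSC (left) and WT preCFU-E against WT preMegE (right); filled points have an adjusted p below 0.05 and the dashed line is the median of all genes tested. On the left the called H1 and H2B genes lie above 0 and most called H2A genes below; on the right Hist2h2be, at -1.15, is the only called gene below 0.

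From WT preMegE to WT preCFU-E nearly all calls were rises. Of 61 members 20 were called, 19 higher and 1 lower, against 26.8% of all genes, of which 15.6% were higher and 11.2% lower. The median was 0.70 against -0.18 for all genes. With the replicate number as a block among the progenitor libraries, a fit chosen after seeing the data, 31 were called, 28 of them higher, including all 20. Same-numbered libraries deviated together between these populations in WT, less clearly in KO. Without WT preMegE library 2 the count was 13 and without WT preCFU-E library 1 it was 10. The share of all genes called by each of these other fits is not set beside its count. These counts therefore do not tell a change among histone genes from a change among all genes. The rises covered each type: Hist1h1b and Hist1h1e of H1 (1.17 and 0.71), 4 H2A genes (Hist2h2ac, Hist1h2ab, Hist1h2ap and Hist1h2ak, 1.21 to 0.92), 8 H2B genes (Hist1h2bh, Hist1h2bk, Hist1h2bj, Hist1h2bq, Hist1h2bl, Hist1h2br, Hist1h2bm and Hist1h2be, 1.25 to 0.81), Hist2h3c2, Hist1h3g and Hist1h3a of H3 (1.13 to 1.08), and Hist1h4c and Hist1h4d of H4. Hist1h4d went from 167, 153 and 161 CPM to 345, 275 and 295 CPM, a change of 0.93 ± 0.16 (SE) with an edgeR adjusted p of 0.000153. Every preCFU-E library was far above every preMegE library.

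Hist2h2be was the exception. This H2B gene of the Hist2 cluster (chr3:96221119-96223738) is known to give polyadenylated mRNA in non-dividing cells as well, and no stem-loop was found in its model of 2620 bases. It was at 27.5, 20.7 and 21.5 CPM in WT preMegE and at 10.2, 10.5 and 10.7 CPM in WT preCFU-E, a change of -1.15 ± 0.21 (SE) with an edgeR adjusted p of 0.000234. The preCFU-E values were tightly grouped at less than the lowest preMegE value. Its sequence is 97.2% unique. In KO cells it was at 33.7, 28.3 and 33.0 CPM in preMegE and 15.0, 12.6 and 14.6 CPM in preCFU-E and fell by 1.17.

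Most S phase, histone mRNA processing and chaperone genes were called higher in the first WT step, where 25.5% of all genes were, and in the second, where 15.6% were. Of the S phase genes 41 of 50 were higher in preMegE than in HSC and 36 of 50 higher in preCFU-E than in preMegE, with none lower and medians of 1.10 and 0.75. The counts were 14 and 10 of 16 for histone mRNA processing and 13 and 13 of 15 for histone chaperones, again with none lower. Of the 11 replication-independent histones 6 were higher and 1 lower in the first step (median 0.54), and 3 higher and 1 lower in the second (median 0.06). H3f3a rose from 144 to 661 CPM on average between WT HSC and preMegE, while Hist2h3c2 and Hist1h3b fell over the same step.

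In KO cells 34 of 61 members were called in the step from HSC to preMegE, 26 higher and 8 lower. This share of 55.7% is close to the 52.7% of all genes called, 25.4% higher and 27.3% lower. The KO HSC libraries that the step starts from are those with the lower histone level above. With the groups of this contrast alone 15 were called, a count given without the share of all genes called by that fit. Higher were 4 of 5 H1 genes (Hist1h1a, Hist1h1b, Hist1h1d, Hist1h1e), 13 of 16 H2B genes (Hist1h2bb, Hist1h2bc, Hist1h2be, Hist1h2bf, Hist1h2bg, Hist1h2bh, Hist1h2bj, Hist1h2bl, Hist1h2bm, Hist1h2bn, Hist1h2bq, Hist1h2br and Hist2h2be), 6 of 11 H4 genes (Hist1h4a, Hist1h4c, Hist1h4d, Hist1h4i, Hist1h4j and Hist2h4), the H2A genes Hist1h2ac and Hist2h2aa1, and Hist1h3g. Lower were Hist1h2ai, Hist1h2ak, Hist1h2an, Hist1h2ap and Hist2h2ac of H2A and Hist1h3b, Hist1h3h and Hist2h3c2 of H3. Some of these calls lie at low levels. Hist1h2an was at 0.907, 3.64 and 0.262 CPM in KO HSC and at 0.564, 0.204 and 0.557 CPM in KO preMegE, with overlap. Hist1h3h was at 0.605 ± 0.4 against 0.0577 ± 0.0502 CPM. Of the higher calls, Hist1h4a and Hist1h4i were at 0.207 ± 0.151 and 0.201 ± 0.098 CPM in KO HSC. Length-scaled counts gave 31 higher and 1 lower in place of 26 and 8. Hist1h2ai, Hist1h2ak, Hist1h2ap, Hist2h2ac, Hist1h3b and Hist2h3c2 were called lower in both genotypes.

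The step from KO preMegE to KO preCFU-E gave 30 calls, 27 higher and 3 lower, against 36.1% of all genes, 18.4% higher and 17.6% lower. Higher were Hist1h1a, Hist1h1b and Hist1h1e of H1, 6 H2A genes (Hist1h2ab, Hist1h2ag, Hist1h2ai, Hist1h2ak, Hist1h2ap and Hist2h2ac), 9 H2B genes (Hist1h2bb, Hist1h2be, Hist1h2bh, Hist1h2bj, Hist1h2bk, Hist1h2bl, Hist1h2bm, Hist1h2bq and Hist1h2br), 7 H3 genes (Hist1h3a, Hist1h3b, Hist1h3e, Hist1h3g, Hist1h3i, Hist2h3b and Hist2h3c2) and Hist1h4c and Hist1h4d. Hist2h2be and Hist1h2bc fell by 1.17 and 0.74 on the log2 scale. Hist4h4 fell by 2.33, but without KO preMegE library 1 its change was -0.56 with an edgeR adjusted p of 0.596, and the call was also lost without any 1 of the 3 KO preCFU-E libraries (0.0551 to 0.0985; 0.00658 to 0.596 over all alternatives). Hist2h2ac rose by log2 1.66 ± 0.28 (SE) with an edgeR adjusted p of 9.79e-05, from 4.62, 3.42 and 4.99 CPM to 10.7, 13.3 and 17.3 CPM. Its groups were far apart.

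Members outside the Hist1 cluster are given by cluster. The Hist2 sum was 83.6 ± 6.97 CPM in WT HSC, 56.0 ± 8.62 in KO HSC, 76.6 ± 11.8 in WT preMegE and 107 ± 16.3 in WT preCFU-E. Within it Hist2h2ac fell and rose with the WT steps and Hist2h4 stayed between 3.75 and 7.25 CPM in all WT libraries. Hist2h2ab was at 1.73 to 5.20 CPM in WT libraries. The Hist3 sum, almost all from Hist3h2a, was highest in WT HSC at 11.8 ± 0.903 CPM and 7.71 ± 0.996 and 6.84 ± 0.554 CPM in WT preMegE and preCFU-E, and 4.33 ± 1.20, 6.96 ± 1.17 and 4.84 ± 0.884 CPM in the KO. Hist3h2ba, its H2B neighbour, did not exceed 0.386 CPM. Hist4h4 was at 2.90, 4.12 and 6.84 CPM in WT HSC but at 3.89, 18.9 and 2.36 CPM in KO HSC, and at 13.4, 1.58 and 1.68 CPM in KO preMegE. The high value came from a single library each time.

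Shared sequence limits several members. The share of a gene's 31-base words found in no other gene had a median of 96.2% for H1, 22.9% for H2A, 42.6% for H2B, 37.0% for H3 and 52.1% for H4. Hist2h2aa1, Hist2h2aa2, Hist2h2bb, Hist2h3b and Hist2h3c1 had none, all of their words being found in genes outside the set as well, among them the overlapping Gm20628, Gm20632, Gm20633 and Gm20634. Hist2h2aa1 ran from 0 to 1006 reads per library and Hist2h2aa2 was at 0 reads in 10 of 18 libraries. Summed with Gm20632 and Gm20633, the pair had 458, 333 and 223 reads in WT HSC, 351, 148 and 180 in KO HSC and 618, 635 and 484 in WT preMegE. The call of Hist2h2aa1 between WT HSC and preMegE therefore cannot be told apart from a call of this family of copies.

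Transcript usage could be tested in only 2 members with more than 1 well-filled transcript, Hist1h2be and Hist1h2bp. Neither was called in the KO of HSC, preMegE or preCFU-E or in the WT steps to preMegE and preCFU-E (edgeR diffSpliceDGE), where 4.36%, 0.138%, 0.234%, 9.82% and 0.149% of 9398 genes were called. In the step from HSC to preMegE 1 of them was at an unadjusted p below 0.05, with an adjusted p of 0.18. In simulated transcript counts for the HSC contrast this test recovered 39 of 97 genes changed by 8-fold and 28 of its 67 calls were false, so its background shares run high.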

How the data were processed

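RNA of 18 libraries (3 per group) was amplified with the NuGEN Ovation RNA-Seq V2 kit, per the labels' protocols, which state neither strand nor priming; histone mRNAs that end at the stem-loop carry no poly(A) tail. The authors quantified transcripts with Salmon 0.12.0 against GRCm38.p6, per the submitters' processing notes, and deposited an estimated count and a TPM value for each transcript. Its index and settings were not given in the sources used here. In the median library 82.9% of the values above 0 were not whole.

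Here 136176 of 136288 transcripts were matched to GENCODE M21 and the estimated counts were summed per gene and rounded. edgeR 4.0.16 (R 4.3.3) gave a quasi-likelihood test (robust fit, filterByExpr) over all 6 groups with TMM factors and 12 residual degrees of freedom, with Benjamini-Hochberg adjustment over 21565 genes that passed the low-count filter; a gene is called at an adjusted p below 0.05. TPM was used for an alternative scale only, since transcripts under 200 bases held 23.0% to 41.1% of it. Alternatives were RLE factors, no filter, length-scaled counts, protein-coding genes alone, the groups of a contrast alone, a replicate block, limma-voom (limma 3.58.1), DESeq2 1.42.0 and leaving out each library. The scripts were tested on simulated data. Mitochondrial rRNA took 12.7% to 33.5% of reads. Replicates differed by more than sampling noise (chi-square per degree of freedom 13.6 to 159), so none was merged.

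Same-numbered libraries deviated together between WT preMegE and WT preCFU-E (r of 0.276 to 0.539). Between KO preMegE and KO preCFU-E r was 0.101 to 0.215, which lay near the upper end of r between KO and WT (-0.117 to 0.212). Between HSC and preMegE r was -0.065 to 0.031. The labels do not state what the numbers mean. Members and lists were chosen with earlier results of these data known. Named are members called in any contrast, the 3 of each type with the highest mean CPM, members outside Hist1, and of each list the 3 with the highest mean CPM; other members named were picked after their values were seen. Promoter motifs were searched by exact match and the stem-loop by a pattern with letters fixed in part, and promoter sequences are from RefSeq.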

Additional observations from a re-analysis of the deposited data

How the results depend on the processing

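Of the counts and summed levels that answer a comparison, 104 stayed the same under an alternative fit by the rule used and 14 moved. A count of calls was taken as the same if its total was equal or within 1.5 times. Its division into higher and lower calls was not compared, and counts that stayed at 0 are included. Counts of calls under an alternative are given without the share of all genes called by the same fit. In HSC the 4 calls of KO against WT became 8 with no filter, 10 with DESeq2, 0 with the HSC groups alone and 1 with the replicate block, and 2 to 12 when a library was left out. In preMegE DESeq2 called 2 in place of 0, and 3 in place of 0 for the difference of the KO effect between preMegE and HSC. The step from WT preMegE to WT preCFU-E gave 31 calls in place of 20 with the replicate block over the progenitors alone, an alternative chosen after seeing the data, and 10 to 18 without a library; the block over all groups moved no other count by more than 1.5 times. KO preMegE against KO HSC gave 15 in place of 34 with these groups alone. The summed log2 ratio became -0.23 in TPM for KO against WT preCFU-E (0.03 in CPM), 0.11 with protein-coding library sizes and -0.17 in TPM for WT preMegE against HSC (0.36), 0.60 and 0.59 for WT preCFU-E against preMegE (0.79), and 0.21 in TPM for KO preMegE against HSC (0.93). In HSC the log2 change of Hist2h2aa1, which is not called, was -0.74 with all libraries and ran from -1.81 without KO library 1 to 0.10 without WT library 2. On the related lists, histone mRNA processing and S phase had 1 call each in preCFU-E KO with those groups alone, replication-independent histones 1 in HSC and S phase 1 in preMegE with no filter or with DESeq2, and S phase 1 in preMegE and 3 in HSC with length-scaled counts and 1 in HSC with DESeq2, all in place of 0. Among members with at least 50% unique words 18.2% were called in HSC against 6.56% of all tested, a division chosen after seeing the data. For single members, 1032 values kept direction and call, 92 lost and 5 gained the call, and 10 moved. Leaving out at least 1 library ended the call of 3 of the 4 members called in HSC KO, of 8 of 22 and 10 of 20 in the WT steps and of 17 of 34 and 11 of 30 in the KO steps. Apart from the alternatives' own changes in genes or samples, the cause was not tested.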

Other observations

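Hist1h4m, an H4 gene that did not pass the filter on low counts, had reads in 3 of the 18 libraries only, at 0.0477 CPM in 1 WT HSC library and at 0.949 and 0.537 CPM in 2 KO HSC libraries. The family of Hist2h3b, Hist2h3c1, Hist2h3c2, Gm20628 and Gm20634, which share most of their sequence, summed to 1140, 960.5 and 828.9 reads in WT HSC and to 716.7, 795.1 and 571.0 reads in KO HSC. Within it Gm20634 ran from 0 to 241.4 reads per library.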
